A study of Sinibotia superciliaris with 2 samples.

Results

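The genes described here encode ion channels and the proteins of G protein signalling in the skin of the loach Sinibotia superciliaris (also called Botia superciliaris), and their RNA was measured once in black and once in yellow skin. Members were chosen from the text of the deposited annotation alone. A unigene (an assembled transcript locus, 1 identifier of the files) was taken when its closest match in the NR protein database named a channel, a G protein-coupled receptor, a guanine nucleotide-binding protein, an adenylate cyclase, a phosphodiesterase, a regulator of G-protein signalling, a purinoceptor, an adrenergic receptor or calmodulin. Kinases, aquaporins and matches to ADCY5, GNAI2 and MCHR1 were left out. This gave 212 of the 5676 annotated unigenes, which were summed by the name of their best Swiss-Prot match into 135 of 4058 genes. The names are those of the closest database protein and do not establish orthology. The words of the rule use no measured value, but the rule leaves out genes by name and was written with earlier results of these data known. The annotation as used here ends within a record, so the counts refer to the genes it names.

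Per the labels, black and yellow skin of wild adult fish was sampled from 6 individuals, and RNA was extracted with Trizol. Each colour was represented by 1 library, and the labels do not say whether RNA of the fish was pooled. No difference below therefore has a replicate check or a test across fish, and each ratio carries a 95% interval that covers counting error only. The libraries held 35386871 reads (black) and 38323075 reads (yellow), of which the members took 0.212% and 0.195%. Levels are in RPM, reads scaled to 1000000 reads of the library, and log2 ratios are black over yellow of RPM + 1, which understates differences of low genes. A gene was past the minimum when its mean over both libraries was at least 1 RPM. In whole skin, fewer cells of a type and less RNA per cell cannot be told apart.

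Ion channels let sodium, potassium, calcium or chloride cross a membrane and so set the voltage and calcium level of nerve, muscle, epithelial and pigment cells. G protein-coupled receptors answer hormones and transmitters through G proteins, which switch adenylate cyclases that make cAMP, or phospholipases C that release calcium from stores, while phosphodiesterases break the cyclic nucleotides down. In fish melanophores, the black pigment cells, a rise in cAMP disperses the pigment granules and a fall gathers them, and catecholamines act on this balance through adrenergic receptors. Potassium channels and gap junctions of pigment cells take part in stripe formation in zebrafish.

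None of the members differed by as much as 2-fold between black and yellow skin when compared as log2 of RPM + 1. Of the 135 genes, 102 were past the minimum and 33 were not. Of the 102, 0 were at least 2-fold higher in black skin, where 0.823% of the 3644 annotated genes past the minimum were, and 0 were at least 2-fold higher in yellow skin, where 0.137% were. Their log2 ratios had a median of 0.08 and an interquartile range from -0.17 to 0.33, beside a median of 0.21 over all annotated genes. Taken as a plain ratio of RPM, 2 members were 2-fold or more higher in black skin (P2RY8 and KCNF1) beside 2.06% of all annotated genes, and 1 in yellow skin beside 0.659%. No interval of a member past the minimum lay wholly beyond 2-fold, beside 0.659% of annotated genes on the black side and 0.0549% on the yellow side. At shares this low, none of these counts out of 102 sets the members apart from the annotated genes. The count of 0 rests in part on the rule, since ADCY5, an adenylate cyclase left out by name, had a log2 ratio of 1.47 and would have been counted as higher in black skin. GNAI2, an inhibitory G protein subunit also left out by name, had a log2 ratio of 0.93 and a plain ratio of 2.12 (1.604 to 2.83).

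**Figure D1:**
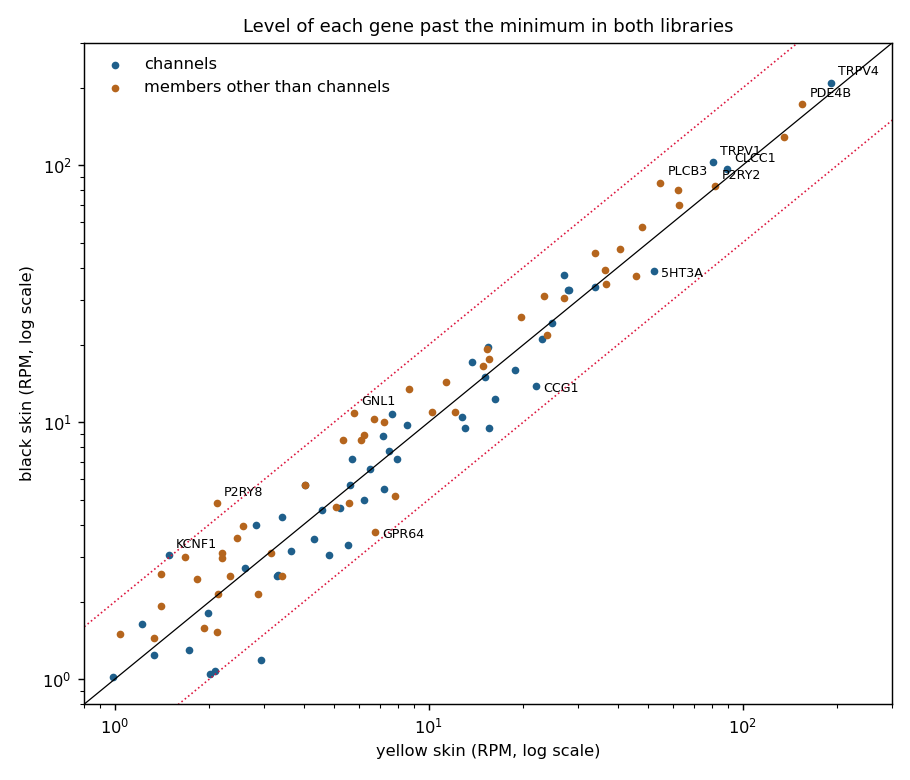
Level of each of the 102 genes past the minimum, in RPM on log axes, with black skin on the vertical and yellow skin on the horizontal axis; the solid line marks equal levels and the dotted lines a plain 2-fold ratio. Channels are blue and the other members brown, and P2RY8 and KCNF1 are the points above the upper dotted line.

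Channels and signalling proteins sat differently against the bulk of genes. The 50 channel genes past the minimum had a median log2 ratio of -0.02, and 22 of them (44.0%) were above 0. The 52 other members had a median of 0.24, and 38 of them (73.1%) were above 0, beside 80.3% of all annotated genes. The interval lay wholly on the black side of 1 for 11 channels and 23 other members, beside 49.6% of annotated genes, and wholly on the yellow side for 13 channels and 3 other members, beside 5.71%. These sides depended on the scaling. TMM scaling, which balances the libraries on their bulk of genes, lowered every ratio of RPM by 0.19 on the log2 scale. After it, 3 channels and 9 other members lay on the black side, beside 22.6% of annotated genes, and 17 channels and 9 other members on the yellow side, beside 15.9%. The median of the channels was 0.23 below that of all annotated genes with the deposited scaling and 0.23 below it after TMM scaling. TMM scaling acts by 1 factor on all genes, so this distance is nearly fixed by construction and its match is no check of the offset. Channels were lower in abundance than the bulk, with a median level of 6.48 RPM against 16.9 RPM for annotated genes. Whether an interval clears 1 also depends on the number of reads, so the shares of sides, here and by role below, are not matched for level. Within the range from 1 to 10 RPM, 31 channels had a median log2 ratio of -0.06 and 1331 annotated genes one of 0.19; from 10 to 100 RPM, 18 channels had one of -0.02 and 1947 annotated genes one of 0.21.

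**Figure D2:**
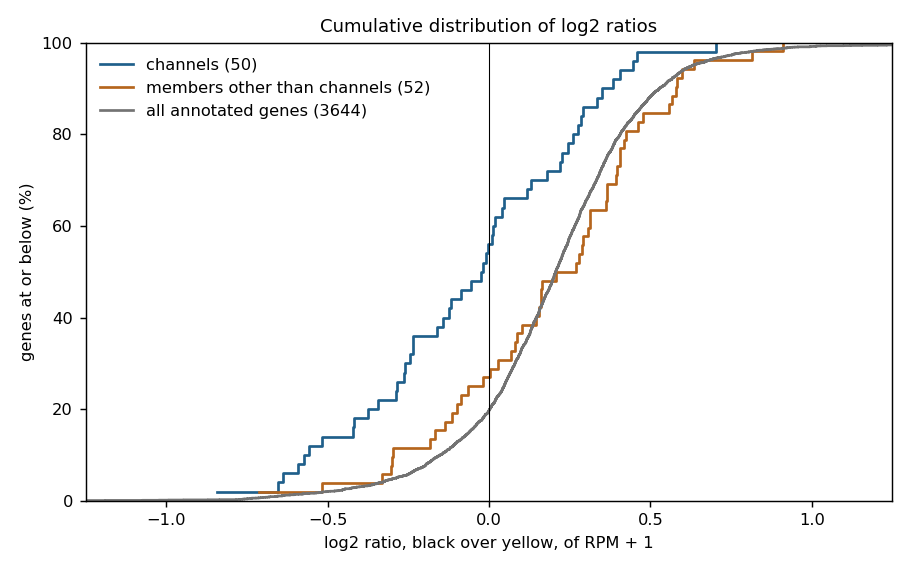
Cumulative share of genes, in percent, by log2 ratio of black over yellow (RPM + 1), for 50 channels, 52 other members and 3644 annotated genes past the minimum. The channel curve lies left of the curve of all annotated genes, with medians of -0.02 and 0.21, and that of the other members runs near it with a median of 0.24.

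**Figure D3:**
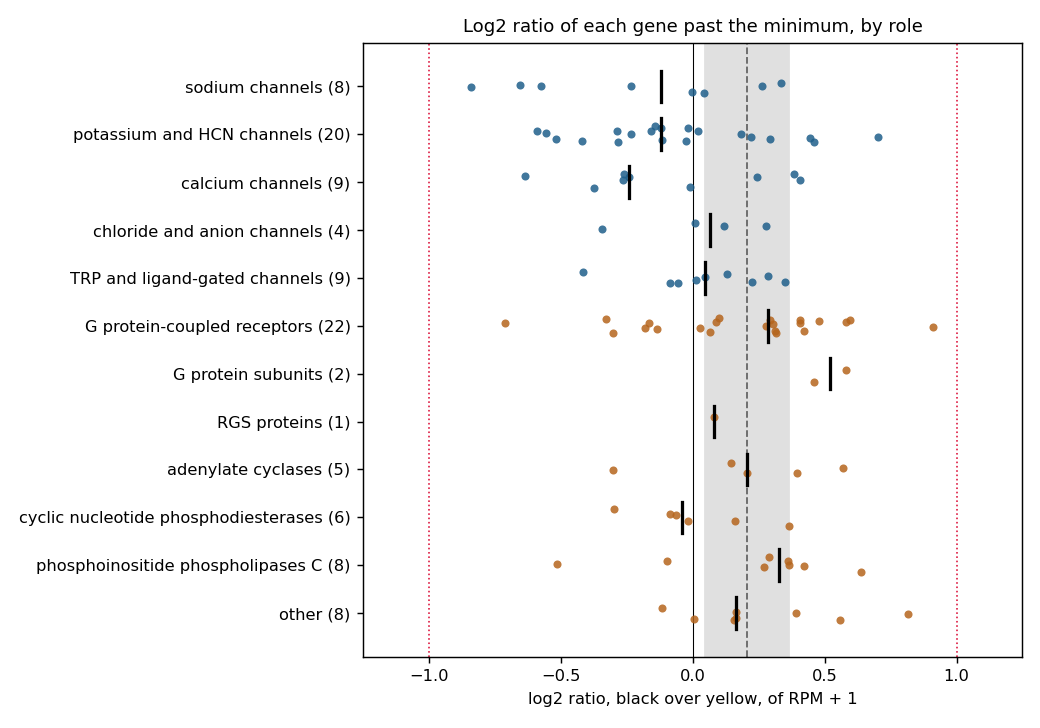
Log2 ratio of black over yellow (RPM + 1) of each gene past the minimum, 1 point a gene, by role with the number of genes; short bars are role medians, the dashed line and grey band the median of 0.21 and the interquartile range of all annotated genes, and dotted lines 2-fold. No point reaches a dotted line.

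Voltage-gated sodium channels carry the upstroke of the action potential in nerve and muscle. The 9 sodium channel genes together were at 59.6 RPM in black skin against 65.9 RPM in yellow, a ratio of 0.904 (interval 0.833 to 0.982), and 0.795 (0.732 to 0.863) after TMM scaling. Of the 8 past the minimum, 1 had an interval wholly on the black side and 4 on the yellow side. The shares of annotated genes were 49.6% and 5.71%. After TMM scaling the counts were 0 and 4, beside 22.6% and 15.9% of annotated genes. The auxiliary beta subunits SCN4B and SCN3B had intervals wholly on the yellow side. SCN4B measured 9.52 RPM in black skin against 15.5 in yellow, a black-to-yellow ratio of 0.612 (0.504 to 0.742), and SCN3B had a ratio of 0.514 (0.281 to 0.909) on 38 black and 80 yellow reads. SC4AA, an alpha subunit of skeletal muscle in zebrafish, had a ratio of 0.842 (0.718 to 0.987). The exception was SCN8A, the alpha subunit found at nodes of myelinated axons, with 19.7 RPM in black skin against 15.4 in yellow, a black-to-yellow ratio of 1.28 (1.09 to 1.50) that became 1.12 (0.959 to 1.32) after TMM scaling. Its 3 unigenes past the minimum differed among themselves, with log2 ratios from -0.08 to 0.61.

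Potassium channels set the resting voltage and end the action potential. The 34 potassium and HCN channel genes were split, with a median log2 ratio of -0.12 among the 20 past the minimum. Of these 20, 5 had intervals wholly on the black side and 4 on the yellow side, beside 49.6% and 5.71% of annotated genes. The intervals of 11 included 1. After TMM scaling 2 lay on the black side, KCNK1 and KCNF1, and 6 on the yellow side, beside 22.6% and 15.9%. Their summed ratio of 1.05 (1.003 to 1.10) turned to 0.922 (0.882 to 0.964) after TMM scaling. KCNK1, a two-pore leak channel, measured 37.3 RPM in black skin against 26.9 in yellow, a black-to-yellow ratio of 1.39 (1.24 to 1.56). Both of its unigenes were on that side, with log2 ratios of 0.28 and 0.76. KCNK2, a leak channel gated by stretch and lipids, had a ratio of 1.41 (1.13 to 1.76). HCN4, a pacemaker channel, had a ratio of 1.24 (1.05 to 1.47). KCNF1, a silent subunit that opens no channel of its own, measured 3.05 RPM in black skin against 1.49 in yellow, a black-to-yellow ratio of 2.05 (1.28 to 3.35). It rested on 108 black and 57 yellow reads.

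On the yellow side stood KCNA3 and KCNA4, Shaker-type channels, the ATP-sensitive inward rectifier IRK8 and the calcium-activated KCNN3. KCNA3, whose NR match is a KCNA2-like channel, measured 3.33 RPM in black skin against 5.53 in yellow, a black-to-yellow ratio of 0.603 (0.431 to 0.836), and KCNA4 had a ratio of 0.520 (0.282 to 0.928) on 37 black and 77 yellow reads. IRK8 had a ratio of 0.636 (0.446 to 0.899) and KCNN3 one of 0.727 (0.594 to 0.888). The inward rectifiers IRK2, IRK11 and IRK12, which hold cells near the potassium voltage, had ratios of 0.908 (0.712 to 1.16), 0.765 (0.509 to 1.14) and 0.888 (0.655 to 1.20), all with intervals that include 1. KCMA1, the large-conductance calcium-activated channel, was nearly level at 14.9 RPM in black skin against 15.2 in yellow. Below the minimum, the silent subunit KCNG1 had 0 reads in black and 28 in yellow skin, and the upper limit of its ratio was 0.326. KCNH2, a channel of the heart's repolarisation whose NR match is KCNH6, had 35 black and 10 yellow reads, a ratio of 3.79 (1.35 to 13.1).

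Voltage-gated calcium channels couple voltage to contraction and secretion. The 15 calcium channel genes summed to 91.5 RPM in black skin against 105 RPM in yellow, a ratio of 0.872 (0.816 to 0.931), and 0.767 (0.718 to 0.819) after TMM scaling. Of the 9 past the minimum, 1 had an interval wholly on the black side and 3 on the yellow side. The shares of annotated genes were 49.6% and 5.71%. After TMM scaling the counts were 0 and 5, beside 22.6% and 15.9% of annotated genes. CCG1, the gamma subunit of the skeletal muscle channel, measured 13.8 RPM in black skin against 22.0 in yellow, a black-to-yellow ratio of 0.627 (0.533 to 0.735). CAC1E and CAC1B, pore subunits of R-type and N-type channels of nerve endings, had ratios of 0.757 (0.634 to 0.903) and 0.821 (0.675 to 0.998). CAC1I, a T-type pore subunit, was level with 33.5 RPM in black skin against 33.8 in yellow, a black-to-yellow ratio of 0.993 (0.887 to 1.11) that became 0.873 (0.779 to 0.977) after TMM scaling. The one calcium channel on the black side was TPC2, the two-pore channel of lysosomes and related organelles that in mouse and human also sits on melanosomes. It measured 5.68 RPM in black skin against 4.04 in yellow, a black-to-yellow ratio of 1.40 (1.03 to 1.91), on 201 black and 155 yellow reads. Its unigene c98333_g1 had a ratio of 1.65 (1.14 to 2.42) and its unigene c98333_g2 one of 0.990 (0.562 to 1.74). After TMM scaling the ratio of TPC2 was 1.235 (0.909 to 1.68). Beside CCG1 stand the annotated skeletal muscle markers, with a summed ratio of 0.915 (0.906 to 0.924) over genes of both directions. Beside TPC2 stand the 4 melanophore markers matched by name, with a summed ratio of 11.003 (7.86 to 15.8). The listed KIT, annotated as KITA, was missed in that sum and had a log2 ratio of 0.47. The part of these markers in the ratios of CCG1 and TPC2 was not tested.

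Anion channels were close to level as a sum, most of which was CLCC1. The 4 genes summed to 117 RPM in black skin against 109 RPM in yellow, a ratio of 1.07 (1.01 to 1.14) that turned to 0.941 (0.886 to 1.001) after TMM scaling. CLCC1, a chloride channel of internal membranes, measured 96.7 RPM in black skin against 88.9 in yellow, a black-to-yellow ratio of 1.09 (1.02 to 1.16), with a log2 ratio of 0.12 that became -0.07 after TMM scaling. CLCN2, an epithelial chloride channel, had a ratio of 1.24 (0.981 to 1.57), and VDAC1, the pore of the outer mitochondrial membrane, one of 0.758 (0.579 to 0.990). After TMM scaling the ratio of VDAC1 was 0.667 (0.509 to 0.8705). CLCN1, the chloride channel of skeletal muscle, had a summed ratio of 1.01 (0.760 to 1.33) over 5 unigenes that differed widely. Its unigene c106020_g2 had 109 black and 70 yellow reads, while its unigene c106020_g4 had 19 black and 76 yellow reads.

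TRP channels of keratinocytes and sensory endings respond to heat, stretch and chemicals, and P2X receptors open on extracellular ATP. The 10 genes had a summed ratio of 1.09 (1.05 to 1.13), which turned to 0.958 (0.927 to 0.990) after TMM scaling. TRPV4, the osmotic and warmth sensor of keratinocytes, had the highest level of any member in RPM, at 210 RPM in black and 191 RPM in yellow skin. Its ratio was 1.10 (1.05 to 1.15), and its log2 ratio of 0.13 became -0.05 after TMM scaling. TRPV1, the heat and capsaicin receptor of mammals, measured 103 RPM in black skin against 80.6 in yellow, a black-to-yellow ratio of 1.28 (1.19 to 1.37). TRPM4, a calcium-activated cation channel, had a ratio of 1.18 (1.04 to 1.32), and 1.03 (0.917 to 1.16) after TMM scaling. The gene named 5HT3A, whose NR match is a zinc-activated ligand-gated channel, was on the yellow side with 38.7 RPM in black skin against 52.1 in yellow, a black-to-yellow ratio of 0.744 (0.674 to 0.821). The P2X receptors P2RX3, P2RX5 and P2RX7 had ratios of 0.934 (0.503 to 1.72), 1.04 (0.815 to 1.32) and 1.26 (0.965 to 1.64), none with an interval wholly to 1 side of 1.

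Of the 26 G protein-coupled receptor genes, 22 were past the minimum, with a median log2 ratio of 0.28. Of these, 9 had an interval wholly on the black side and 2 on the yellow side, beside 49.6% and 5.71% of annotated genes. After TMM scaling the counts were 4 and 5, beside 22.6% and 15.9%. The summed ratio of 1.09 (1.05 to 1.13) likewise turned to 0.959 (0.924 to 0.995), beside 1.16 and 1.02 over all annotated genes. P2RY8, a receptor of lymphocytes in human, was the member most on the black side among those past the minimum, with 4.86 RPM in black skin against 2.11 in yellow, a black-to-yellow ratio of 2.30 (1.57 to 3.43) on 172 black and 81 yellow reads. Its log2 ratio of 0.91 was the nearest to 2-fold of the members past the minimum. The immune markers matched by name had a summed ratio of 1.32 (1.26 to 1.37), over single ratios from 0.924 for CD3Z to 1.87 for CSF1R. Their part in the P2RY8 ratio was not tested. The alpha2 adrenergic receptor ADA2B, which lowers cAMP, had 10 black and 0 yellow reads within the rule, and the lower limit of its ratio was 0.992. Over all annotated unigenes of that name, including those outside the rule, ADA2B was past the minimum with a log2 ratio of 0.85. GPR37, a receptor of glia and neurons, measured 45.4 RPM in black skin against 34.0 in yellow, a black-to-yellow ratio of 1.34 (1.20 to 1.48). The gene named GPR4, whose NR match is GPR184, had a ratio of 1.26 (1.04 to 1.51), and 1.10 (0.918 to 1.33) after TMM scaling.

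P2RY2, a receptor for ATP and UTP in epithelia, was abundant and level, with 83.1 RPM in black skin against 81.5 in yellow, a black-to-yellow ratio of 1.02 (0.949 to 1.10) that became 0.896 (0.834 to 0.963) after TMM scaling. Other purine receptors spread around it, P2RY1 with a ratio of 0.870 (0.648 to 1.17) and P2Y14, a receptor for UDP-glucose, with one of 1.55 (1.06 to 2.28), the last 1.36 (0.931 to 2.001) after TMM scaling. The receptors on the yellow side were adhesion receptors. GPR64 measured 3.73 RPM in black skin against 6.76 in yellow, a black-to-yellow ratio of 0.552 (0.404 to 0.748). GP126, needed by Schwann cells for myelin, measured 36.9 RPM in black skin against 45.8 in yellow, a black-to-yellow ratio of 0.807 (0.728 to 0.893), with both of its unigenes below 1. A further adhesion receptor, GPR98, was below the minimum with 18 black and 0 yellow reads, and the lower limit of its ratio was 2.14. LGR4 and LGR6, receptors for R-spondins in epithelial stem cells, had ratios of 0.903 (0.742 to 1.10) and 1.35 (0.843 to 2.16). The log2 ratio of LGR4 was -0.14 within the rule and 0.009 over all annotated unigenes of that name.

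**Figure D4:**
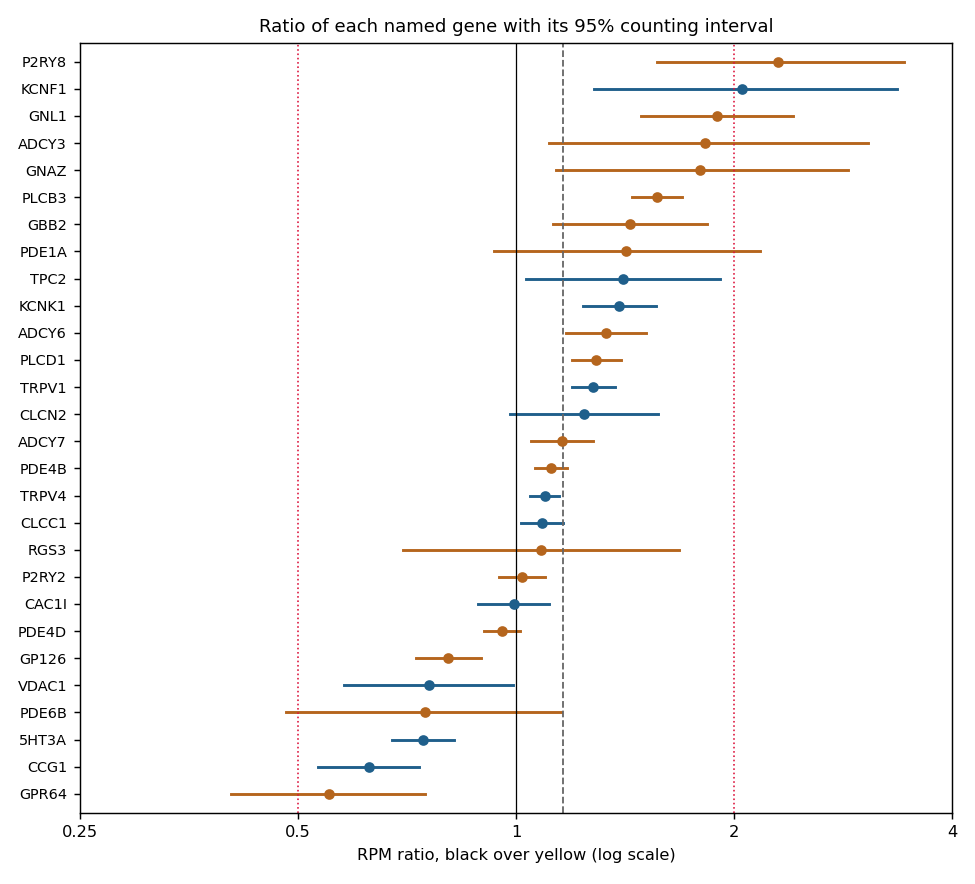
RPM ratio of black over yellow, on a log axis, of 28 named genes, with the 95% interval for counting error as a bar; channels are blue, other members brown. Dotted lines mark a plain 2-fold ratio and the dashed line the ratio of all annotated reads, 1.16. P2RY8 at 2.30 and GPR64 at 0.552 stand at the ends.

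Few G protein subunits were annotated. GBB2, a beta subunit, measured 8.95 RPM in black skin against 6.23 in yellow, a black-to-yellow ratio of 1.44 (1.13 to 1.84). GNAZ, an alpha subunit that inhibits adenylate cyclase, measured 2.99 RPM in black skin against 1.67 in yellow, a black-to-yellow ratio of 1.79 (1.14 to 2.87). After TMM scaling both intervals included 1, with 1.26 (0.990 to 1.615) for GBB2 and 1.58 (0.998 to 2.53) for GNAZ. The gene named GNAS, the stimulating alpha subunit, had 14 black and 15 yellow reads. It was 1 unigene with a coding stretch of 540 bases, whose NR match is a partial XLas-like isoform. Its reads are therefore not the level of the whole gene. RGS3, which speeds the switching off of G proteins, had 89 black and 89 yellow reads, a ratio of 1.08 (0.698 to 1.68).

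Of the adenylate cyclases, which make cAMP, 3 of the 5 past the minimum had an interval wholly on the black side. The share of annotated genes was 49.6%. After TMM scaling 1 did, ADCY6, beside 22.6% of annotated genes. The 6 adenylate cyclases summed to 99.9 RPM in black skin against 83.5 RPM in yellow. Their ratio was 1.20 (1.12 to 1.28), and 1.05 (0.982 to 1.13) after TMM scaling. All annotated genes together had a ratio of 1.16, and 1.02 after TMM scaling. ADCY7 measured 47.3 RPM in black skin against 40.8 in yellow, a black-to-yellow ratio of 1.16 (1.05 to 1.28), ADCY6 had a ratio of 1.33 (1.17 to 1.51) and ADCY3 one of 1.82 (1.11 to 3.06) on 91 black and 54 yellow reads. ADCY8, a calcium-stimulated cyclase, had a ratio below 1 with an interval that includes 1, 0.722 (0.427 to 1.20). The left-out ADCY5 measured 4.86 RPM in black skin against 1.12 in yellow, a black-to-yellow ratio of 4.33 (2.68 to 7.31).

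The 9 cyclic nucleotide phosphodiesterases summed to 346 RPM in black skin against 335 RPM in yellow, a ratio of 1.03 (0.996 to 1.07) that turned to 0.907 (0.876 to 0.939) after TMM scaling. PDE4B and PDE4D, which break down cAMP, held most of these reads. The gene named PDE4D joins 4 unigenes, the first of which has phosphodiesterase 4C as its NR match. Its 3 unigenes past the minimum had log2 ratios from -0.15 to 0.19. PDE4B measured 173 RPM in black skin against 155 in yellow, a black-to-yellow ratio of 1.12 (1.06 to 1.18), with a log2 ratio of 0.16 that became -0.02 after TMM scaling. PDE4D measured 129 RPM in black skin against 135 in yellow, a black-to-yellow ratio of 0.956 (0.903 to 1.01), and PDE3B had a ratio of 0.941 (0.843 to 1.05). Both lay wholly on the yellow side after TMM scaling, with 0.840 (0.794 to 0.889) for PDE4D and 0.827 (0.741 to 0.923) for PDE3B. The calcium-dependent PDE1A and the PDE6B of rod photoreceptors had ratios of 1.42 (0.932 to 2.17) and 0.748 (0.481 to 1.15).

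Phospholipases C, which split a membrane lipid into the messengers that release calcium, were the role with the highest summed ratio among those with more than 3 genes. The 9 genes summed to 271 RPM in black skin against 206 RPM in yellow, a ratio of 1.32 (1.26 to 1.37), and 1.16 (1.11 to 1.21) after TMM scaling. Of the 8 past the minimum, 5 had an interval wholly on the black side and 1 on the yellow side, beside 49.6% and 5.71% of annotated genes. After TMM scaling 2 lay on the black side, PLCB3 and PLCD1, and 1 on the yellow side, beside 22.6% and 15.9%. PLCB3, an isoform switched on by Gq proteins, measured 85.6 RPM in black skin against 54.7 in yellow, a black-to-yellow ratio of 1.56 (1.44 to 1.69). PLCD1, which takes part in hair and epidermal differentiation in mouse, measured 80.2 RPM in black skin against 62.2 in yellow, a black-to-yellow ratio of 1.29 (1.19 to 1.39). PLCE1, PLCH2 and PLCB4 had ratios of 1.39 (1.11 to 1.75), 1.30 (1.13 to 1.50) and 1.21 (1.11 to 1.32). PLCB1, the isoform abundant in brain, was the exception with 5.17 RPM in black skin against 7.82 in yellow, a black-to-yellow ratio of 0.661 (0.504 to 0.862).

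**Figure D5:**
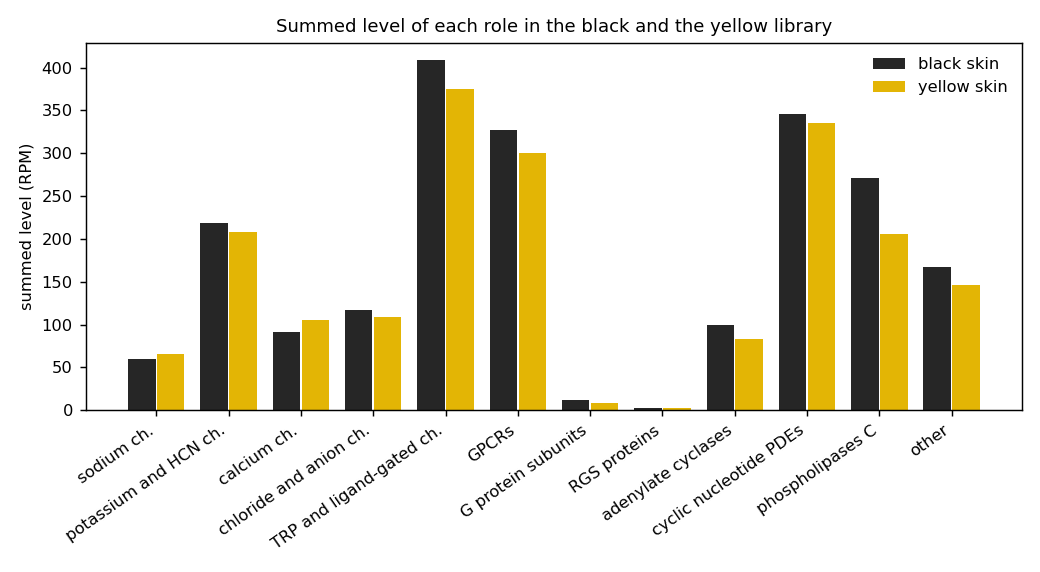
Summed level in RPM of the genes of each role, with black skin as the black and yellow skin as the yellow bar (1 library each, so without error bars). The phospholipases C differ most in height, at 271 and 206 RPM, and the sodium and calcium channels are lower in black skin.

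The wording of the rule also took in 9 genes with no channel, receptor or cyclic nucleotide role of their own. GNL1, a GTPase whose name only resembles that of the G proteins, measured 10.9 RPM in black skin against 5.76 in yellow, a black-to-yellow ratio of 1.89 (1.49 to 2.41). GDPD1, a lysophospholipase D, had a ratio of 1.54 (1.23 to 1.95), and ENPP2, which makes lysophosphatidic acid, one of 1.13 (0.996 to 1.27). Without the phospholipases C and these 9 genes, the median log2 ratio of the members was 0.03.

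Levels can be compared between genes only per length, and the unigene lengths were not used here, so RPM was divided by the length of the predicted coding stretch. Reads outside that stretch raise such a value. On this scale the highest members were PLCD1 with 153 RPM per kb of coding sequence in black and 118 in yellow skin, CLCC1 with 122 and 112, P2RY2 with 83.4 and 81.8, TRPV4 with 80.2 and 73.2, and PDE4B with 79.6 and 71.2. The same genes stood at the top in both libraries. Their order depends on the coding stretch found, which was 525 bases for PLCD1, 792 for CLCC1 and 996 for P2RY2. It was 2616 bases for TRPV4 and 2175 for PDE4B. The muscle and nerve sodium channels lay far below, SC4AA with 12.4 in black and 14.7 in yellow skin and SCN8A with 2.99 and 2.34.

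Transmembrane helices were predicted in 138 of the 212 unigenes. All 32 unigenes of G protein-coupled receptors had at least 1 predicted transmembrane helix, with a median of 7.0, while the cyclic nucleotide phosphodiesterases had 1 with a helix among 15 and the phospholipases C none among 17. Of the 23 sodium channel unigenes, 18 had a helix and the median was 2.0, with a median coding stretch of 636 bases, so these long proteins were mostly present as fragments. A name can therefore join fragments of 1 gene or of near-identical copies, and reads of copies cannot be told apart here. Of 27 genes with at least 2 unigenes past the minimum, 16 had all of them on the same side of a log2 ratio of 0. The median distance between their highest and lowest log2 ratio was 0.37, and the widest was 1.49, in CLCN1.

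Of 84 listed partners of cAMP and calcium signalling, 44 were annotated under a matched name and not themselves members, and 43 were past the minimum. Their median log2 ratio was 0.22, beside 0.21 over all annotated genes. Of the 43, 24 had an interval wholly on the black side and 7 on the yellow side, beside 49.6% and 5.71%. After TMM scaling the counts were 15 and 10, beside 22.6% and 15.9%. The only partner 2-fold apart on the log2 scale of RPM + 1 was AT2A1, the calcium pump of fast skeletal muscle. It measured 39.3 RPM in black skin against 15.8 in yellow, a black-to-yellow ratio of 2.49 (2.17 to 2.86) on 1 unigene. The similarly named AT2A2 was more abundant and on the yellow side. It measured 472 RPM in black skin against 646 in yellow, a ratio of 0.731 (0.711 to 0.752) over 8 unigenes. AT2A3 was on the black side, with a ratio of 1.52 (1.41 to 1.63). GRK5, a kinase that silences receptors, measured 3.25 RPM in black skin against 6.57 in yellow, a black-to-yellow ratio of 0.494 (0.355 to 0.680). The ryanodine receptors, calcium release channels of muscle stores named after their values were seen, had ratios of 0.907 (0.865 to 0.951) for RYR1, 0.643 (0.520 to 0.792) for RYR2 and 0.777 (0.706 to 0.854) for RYR3.

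Markers of other cell types were also compared between the libraries, where all annotated genes together had a ratio of 1.16. Only markers found under a matched symbol or entry name are counted as annotated below, and some listed genes were missed. Of 30 listed skeletal muscle markers, 15 were annotated, with a sum of 4202 RPM in black skin against 4594 in yellow. They did not share a direction, with 8 intervals on the yellow and 4 on the black side, beside 5.71% and 49.6% of annotated genes. Those on the black side included ACTS, skeletal muscle actin, at 1.30 (1.27 to 1.34) and AT2A1. After TMM scaling 9 lay on the yellow side and 2, ACTS and AT2A1, on the black side, beside 15.9% and 22.6%. The 6 members known from muscle (SC4AA, SC4AB, SCN4A, CLCN1, CCG1 and CCG6) summed to 44.4 RPM in black skin against 53.3 in yellow. CCG1 alone measured 13.8 RPM in black skin against 22.0 in yellow within that sum. The 5 past the minimum had a median log2 ratio of 0.009, with 3 above 0, beside 80.3% of annotated genes. Of these 5, 2 had an interval on the yellow and 0 on the black side, beside 5.71% and 49.6%. After TMM scaling the counts were again 2 and 0, beside 15.9% and 22.6%. Of 24 immune markers, 7 were matched, summing to 269.9 RPM in black skin against 205 in yellow. Of the 6 past the minimum, 4 had an interval on the black side, beside 49.6% of annotated genes. After TMM scaling 4 lay on the black side and 1, IRF8, on the yellow side, beside 22.6% and 15.9%. IRF8, the most read of them, had a ratio of 1.06 (0.995 to 1.12) before that scaling. CSF1R measured 65.3 RPM in black skin against 34.8 in yellow, a ratio of 1.87 (1.70 to 2.06). Whether the CSF1R reads came from immune cells was not tested. The listed ITGB2, annotated as ITB2, was missed in the matching and had a log2 ratio of 0.58. The 6 receptors known from leukocytes (GP132, GP171, GP174, GP83A, P2RY8 and P2Y10) summed to 89.3 RPM in black skin against 74.3 in yellow, a ratio of 1.20 (1.12 to 1.29), and 1.06 (0.983 to 1.14) after TMM scaling. Of 20 nerve and glia markers, 4 were annotated, at 174 RPM in black skin against 150.4 in yellow, mostly PMP22. Their summed ratio of 1.15 (1.10 to 1.21) was close to that of all annotated genes. After TMM scaling the interval of PMP22 included 1. The counts were then 0 on the black side and 1, SOX2, on the yellow side, beside 22.6% and 15.9%. The 15 members known from nerve summed to 78.2 RPM in black skin against 83.7 in yellow, a ratio of 0.934 (0.869 to 1.005), and 0.821 (0.764 to 0.883) after TMM scaling. Of 12 melanophore markers, 4 were matched, among them PMEL and TYRP1, at 21.5 RPM in black skin against 1.96 in yellow. The listed KIT was annotated under the name KITA but missed in the matching. KITA had a log2 ratio of 0.47. Of 12 ionocyte markers, 5 were annotated, at 125 RPM in black skin against 94.7 in yellow. That sum came from S12A2 and VATA, while S12A3, B3AT and SL9A3, all below the minimum, had more reads in yellow skin, S12A3 with 3 black and 25 yellow reads. No annotated marker had 0 reads, and the part of these cells in the results was not tested.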

How the data were processed

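RNA of black and yellow skin was sequenced with standard Illumina protocols, per the labels; the submitters' processing notes name the zebrafish build GRCz11 in a role they do not give, and the labels name no assembler, aligner or counter. The authors deposited 1 normalised signal per unigene and library, whose header names no unit. Values repeated for further proteins of a unigene (4131 rows) were used once. They were whole multiples of 1 step, 0.0282 RPM in black and 0.0261 in yellow, for 100% of values within 0.1 read; the lowest value, 0.5 of a step, was taken as 0 reads. The deposited annotation ends within a record and holds other than measurements (matches, predicted helices), per the file headers. Matches were BLASTX names, or BLASTP where none; 8 further unigenes of member names fell outside the rule and were not summed with the members. Listed genes were matched by symbol or Swiss-Prot entry name. Annotated genes under other entry names, such as KITA for KIT and ITB2 for ITGB2, were missed. Each read pair was counted once in Clopper-Pearson intervals (95%) conditional on both libraries; 0 reads allow up to 3 pairs, or 6 reads. Both cover counting error only. A count test across fish could not be made with 1 library a colour.

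The members, role classes, gene lists and alternatives were chosen with earlier results of these data known; phospholipases C and the muscle, nerve and leukocyte groups were set from the annotation and general knowledge after the design. Named genes were, per role class, the 2 of highest mean and the 2 of largest log2 ratio; others were added for their role and named after their values were seen. Values of 3 single genes are not reported here; they stay in sums and counts. Alternatives were TMM scaling (edgeR 4.0.16), totals without the 100 most abundant unigenes, pseudocounts of 0.1 and 5 in place of 1, other minimums, call rules, joining and membership. Python 3.11.15 with scipy 1.17.1 was used; the steps were tested on simulated data.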

Additional observations from a re-analysis of the deposited data

How the results depend on the processing

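The counts of 0 members 2-fold apart were 0 in either direction under every alternative except these. With a pseudocount of 0.1, 1 of 102 members was higher in black skin (P2RY8) and 1 in yellow skin, beside 68 and 18 of 3644 annotated genes. With totals without the 100 most abundant unigenes, 1 of 108 was higher in yellow skin, beside 13 of 3753 annotated genes. The median log2 ratio of the members (0.08) was -0.070 with TMM scaling, -0.083 without the 100 most abundant unigenes, 0.052 with a pseudocount of 5, 0.15 at a minimum of 5 RPM and 0.034 without the class of other genes, which holds the phospholipases C. The median of the channels (-0.02), a result added after seeing the data, was -0.19 with TMM scaling, -0.20 without the 100 most abundant unigenes and 0.0095 at a minimum of 5 RPM. Its distance from the median of all annotated genes ran from -0.25 to -0.18. The summed level ratio (1.09) was 0.959 with TMM scaling, 0.958 without the 100 most abundant unigenes and 1.06 without the class of other genes. Both scalings act by 1 factor on all genes, so these shifts follow from their construction. The nearly unchanged distance of the channel median under both scalings follows from it too. Of the 30 genes chosen by the naming rule, 14 left their counting interval and 5 changed sign with TMM scaling (CLCC1, P2RY2, PDE4B, RGS3 and TRPV4). With the most abundant unigene in place of the sum, 1 moved (KCNK1) and 1 changed sign (PDE6B). No paired analysis was possible because there is 1 library per colour, and no library could be left out.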
